A study of Mus musculus with 6 samples.

Results

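The genes of the G1 phase of the cell cycle were examined across the study's 6 Mouse Gene ST arrays: the D-type cyclins Ccnd1, Ccnd2 and Ccnd3, their kinases Cdk4 and Cdk6, the E-type cyclins Ccne1 and Ccne2, their kinase Cdk2, and the phosphatase gene Cdc25a. These 9 genes were chosen by name. Over the whole series 22180 genes have a probeset carrying a single gene symbol. Of the 9 genes, 8 had such a probeset, each a single one, so that no gene's value rests on a choice among probesets. The probeset of Ccne2 is also annotated to Ints8, and Ccne2 was therefore not measured here. Of those 8 genes, 7 reached the array's median signal on at least 2 arrays and were tested, and Ccnd2 reached it on none of the 6 arrays.

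All blastocysts came from let7g-transgenic mice, and each array was made from the RNA of 10 of them. The 3 groups held 2 arrays each. D4-act-7g blastocysts were activated on day 4, Dor-7g blastocysts were dormant in vivo on day 7, and DOX-7g blastocysts were held in vitro with let-7 induced by DOX and were dormant on day 7. The controls thus carry the transgene too, and what drives it is not stated in the sources read here. Dormancy in Dor-7g cannot be told apart from the later day, and in DOX-7g it cannot be told apart from day, culture and the DOX itself. The labels do not tell whether a group's 2 arrays came from separate pools of mice, so p-values measure only the spread between arrays, which may be technical, and the number of arrays limits the precision.

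D-type cyclins bind Cdk4 or Cdk6, and the complexes phosphorylate the retinoblastoma protein, which releases E2F transcription factors. E2F factors switch on genes of S phase, among them E-type cyclins and Cdc25a. Cyclin E with Cdk2 then drives entry into S phase, and Cdc25a removes the phosphates that hold Cdk2 inactive. In mouse pluripotent cells D-type cyclins are known to be low and cyclin E with Cdk2 active through most of the cycle. In human cell lines let-7 has been reported to lower Cdk6, Cdc25a and Ccnd2. The mature microRNA named by the transgene is shown here because its seed, bases 2 to 8 in capitals, is the part that pairs with target transcripts (RefSeq, GRCm38.p6, chr9:106178846-106178867, plus strand).
mmu-let-7g-5p: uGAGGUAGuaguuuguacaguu
Of 11 mature names of the let-7 family and miR-98 in the RefSeq table (3p arms aside), 10 carry this seed.

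One array stood apart. Across probesets, which are not independent replicates, Pearson's r of Dor-7g replicate 1 with any other array was 0.899 to 0.919. The highest r was 0.978 for both D4-act-7g arrays and 0.969 for both DOX-7g arrays. For Dor-7g replicate 2 it was 0.950, with an array of another group, and its r with Dor-7g replicate 1, 0.919, was its lowest. The median gap of a tested gene between both arrays of its group was 0.36 log2 units for Dor-7g, 0.17 for D4-act-7g and 0.20 for DOX-7g. Differences that involve Dor-7g are therefore also given without that array, for the tested members and for the named genes and stated medians of the lists. They are not given so for Ccnd2, which was not tested. Such a fit leaves a single Dor-7g array, so its p-values take the spread from D4-act-7g and DOX-7g alone, assume that Dor-7g varies like them, and say nothing of replication within Dor-7g. Markers of trophectoderm were at or above the array median for 6 or 7 of 7 genes on every array, those of primitive endoderm for 4 or 5 of 5, and those of the inner cell mass for 3 or 4 of 6, with Sox2 and Esrrb below the median on all 6 arrays. Among 5 blood markers the summed log2 signal was 22.0 and 22.5 in D4-act-7g, 24.6 and 26.9 on Dor-7g arrays, and 37.1 and 35.0 on DOX-7g arrays. S100a8, a neutrophil gene, stood at 10.91 and 10.12 in DOX-7g against 3.28 and 3.16 in D4-act-7g. In Dor-7g it stood at 2.81 on replicate 1 and at 7.18 on replicate 2. S100a9, also among these blood markers, was instead higher on Dor-7g replicate 1, at 7.10, than on replicate 2, at 6.41. Both Dor-7g arrays of S100a9 lay above both D4-act-7g arrays and below both DOX-7g arrays. Ptprc, which marks leukocytes, stayed between 3.57 and 3.82 on all 6 arrays, below the median. Among 7 uterine stroma markers the sum was 36.3 on both D4-act-7g arrays, 38.9 and 42.4 on Dor-7g arrays, and 36.0 and 36.7 on DOX-7g arrays. Dcn, decorin, stood at 9.29 on Dor-7g replicate 2 and at 4.22 or less elsewhere. Apart from Dcn and Hand2, the stroma markers read lower on Dor-7g replicate 2 than on replicate 1. Uterine epithelium markers, of which at least Krt7 and Epcam are known from trophectoderm too, summed to 44.2 and 43.8 in D4-act-7g, 47.5 and 45.7 on Dor-7g arrays, and 45.7 and 46.8 on DOX-7g arrays over 7 genes. These sums were not centred on the array median, which was 4.87 on Dor-7g replicate 1 and 4.62 to 4.67 on the other arrays. The part of these cell types in the results below was not tested, and in such bulk samples fewer cells of a type and less RNA per cell cannot be told apart.

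The comparison of Dor-7g with D4-act-7g asks how blastocysts dormant in vivo differ from activated ones. The G1 cyclins Ccnd3 and Ccne1 and the kinase Cdk6 were each lower in Dor-7g by 0.85 to 0.93 log2 units, or 1.81 to 1.91-fold, but no member passed the threshold of an adjusted p of 0.05. In limma's test 0 of 7 members passed in either direction, against 0.984% of all 14020 genes, of which 0.742% fell and 0.243% rose. At an unadjusted p of 0.05, 3 of 7 members differed, against 14.3% of all genes, and all 3 were lower (8.81% of all genes were lower and 5.44% higher). Both Dor-7g arrays lay below both D4-act-7g arrays for 5 of 7 members, against 21.5% of all genes, and above them for none, against 24.3%, so that 45.8% of all genes had groups that did not overlap. The median difference of the members was -0.85, and that of all genes 0.061. Without Dor-7g replicate 1 no member passed either (limma; 0.785% of genes rose and 1.11% fell), and replicate 2 alone lay below both D4-act-7g arrays for 5 of 7 members, against 42.0% of all genes, and above them for none, against 34.9%.

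DOX-7g was set against D4-act-7g to ask how blastocysts that were dormant in vitro with let-7 induced differ from activated ones. Ccnd3 and Ccne1 were again lower, by 0.81 and 0.66 log2 units (1.76-fold and 1.58-fold). The DOX-7g arrays of Cdk6 and Ccnd1 overlapped with D4-act-7g. Their differences were -0.21 (95% interval -0.81 to 0.39) and 0.30 (-0.39 to 0.99), which does not show that they were unchanged. In limma's test 0 of 7 members passed, against 0.956% of all genes, of which 0.706% rose and 0.250% fell. At an unadjusted p of 0.05, 2 of 7 members differed, against 11.0% of all genes, and both were lower (6.40% of all genes were lower and 4.61% higher). Both DOX-7g arrays lay below both D4-act-7g arrays for 4 of 7 members, against 30.5% of all genes, and above them for none, against 19.2% (49.7% in either direction). The median difference of the members was -0.28 and that of all genes -0.054. The D4-act-7g arrays enter both comparisons, so their differences are not independent of each other.

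DOX-7g was also compared with Dor-7g, to ask whether both kinds of dormant blastocyst differ. Ccnd1 and Cdk6 were higher in DOX-7g by 0.87 and 0.64 log2 units, or 1.83-fold and 1.56-fold, without passing. Again 0 of 7 members passed in limma's test, against 1.16% of all genes, of which 1.04% rose and 0.121% fell. At an unadjusted p of 0.05, 2 of 7 differed, against 11.6% of all genes, and both were higher (6.06% of all genes were higher and 5.53% lower). The DOX-7g arrays lay above the Dor-7g arrays for 3 of 7 members, against 15.0% of all genes, and below them for 1, Cdc25a, against 26.7% (41.7% in either direction). The members' median difference was 0.20, against -0.11 for all genes. No member passed without Dor-7g replicate 1 (limma; 1.02% of all genes rose and 0.535% fell), and the DOX-7g arrays then lay above Dor-7g replicate 2 for 3 members and below it for 3, against 33.6% and 38.7% of all genes.

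**Figure D1:**
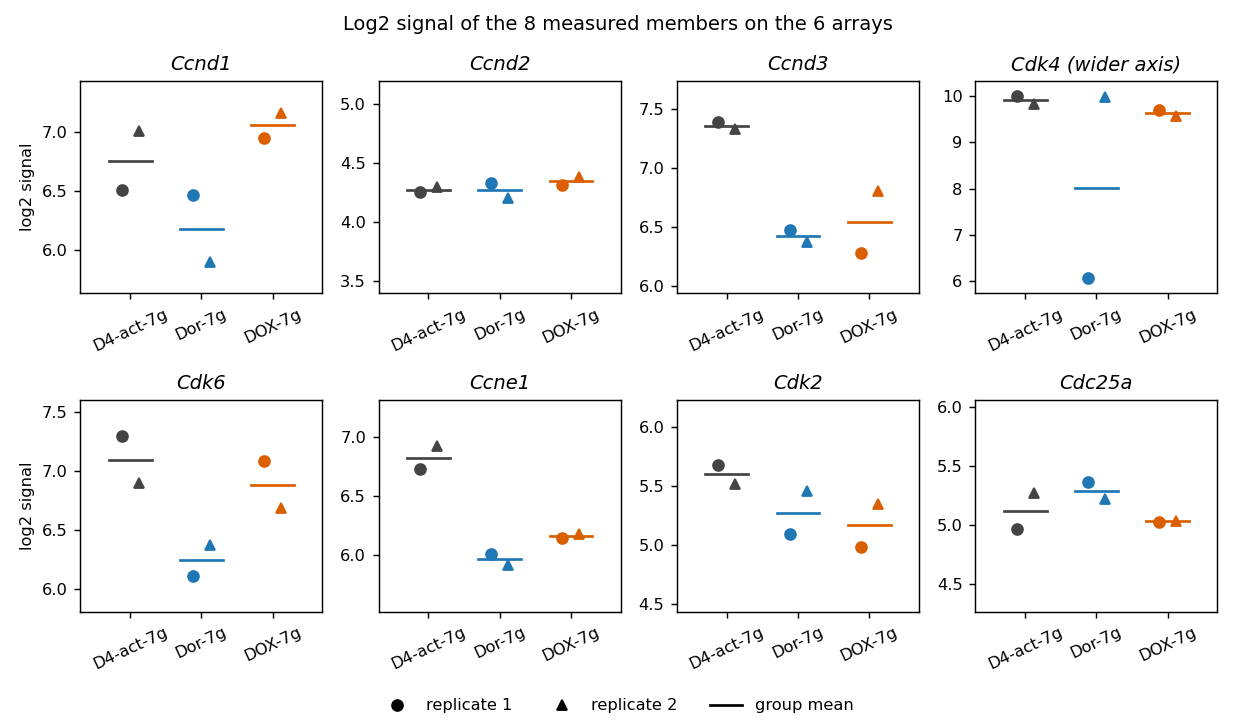
Log2 signal (vertical axis) of the 8 measured genes on each of the 6 arrays, by group; circles are replicate 1, triangles replicate 2 and horizontal lines group means, and each panel spans the same height except that of Cdk4. Ccnd3 and Ccne1 are highest on both D4-act-7g arrays, and Cdk4 is low on Dor-7g replicate 1 alone, at 6.05.

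Among the D-type cyclins, Ccnd1, the one most often induced by growth factors, read 6.51 and 7.01 on the D4-act-7g arrays, 6.46 and 5.90 on the Dor-7g arrays, and 6.94 and 7.16 on the DOX-7g arrays. The Dor-7g arrays were the lowest, with replicate 1 only just below the nearer D4-act-7g array, and the DOX-7g arrays overlapped with D4-act-7g. Its means were 6.76 ± 0.35 for D4-act-7g, 6.18 ± 0.40 for Dor-7g and 7.05 ± 0.16 for DOX-7g (SD, n = 2 arrays each). The difference of Dor-7g from D4-act-7g was -0.58 ± 0.28 (SE; limma, adjusted p = 0.417), and it was -0.86 without Dor-7g replicate 1 and -0.30 without replicate 2. DOX-7g stood 0.30 ± 0.28 above D4-act-7g (limma, adjusted p = 0.843). Between both dormant groups the difference was 0.87, with a 95% interval of 0.18 to 1.57 (limma, adjusted p = 0.334), and it was 1.16 without Dor-7g replicate 1. The order of the means was thus DOX-7g, D4-act-7g, Dor-7g, and no neighbours in it differed past the threshold.

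Ccnd3, the D-type cyclin best known from lymphocytes and differentiating tissues, read 7.39 and 7.33 in D4-act-7g, 6.48 and 6.37 on Dor-7g arrays, and 6.28 and 6.81 on DOX-7g arrays. All 4 dormant arrays lay below both D4-act-7g arrays, and the 2 DOX-7g arrays spanned both Dor-7g arrays. The D4-act-7g mean was 7.36 ± 0.04, the Dor-7g mean 6.43 ± 0.07 and the DOX-7g mean 6.54 ± 0.37 (SD, n = 2 arrays each). The difference was -0.93 ± 0.22 for Dor-7g (SE; limma, unadjusted p = 0.00644, adjusted p = 0.156) and -0.81 ± 0.22 for DOX-7g (limma, unadjusted p = 0.0117, adjusted p = 0.248). Without Dor-7g replicate 1 the former was -0.99. With this gene's SE, a difference of 1.57 log2 units would have been needed to pass in the first comparison and 1.58 in the other. DOX-7g and Dor-7g differed by 0.12, with an interval of -0.44 to 0.67, and by 0.17 without Dor-7g replicate 1.

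Ccnd2, reported as a let-7 target in human cells, was dim throughout. It read 4.25 and 4.29 in D4-act-7g, 4.33 and 4.20 on Dor-7g arrays, and 4.31 and 4.38 on DOX-7g arrays, all below the array median, and spanned 0.18 log2 units over the 6 arrays. The DOX-7g arrays lay just above both D4-act-7g arrays, and the Dor-7g arrays overlapped with them. A fit without the filter gave differences from D4-act-7g of -0.0040 for Dor-7g (95% interval -0.38 to 0.37) and 0.078 for DOX-7g (-0.30 to 0.46; limma, adjusted p = 0.994 and 0.998). At a level this low the array may not follow changes of the transcript, so these intervals limit the signal only.

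Ccnd1 and Ccnd3 differed in pattern in the DOX-7g group. The log2 ratio of Ccnd1 to Ccnd3 within an array, which shows unequal change and not which gene is more abundant, was -0.88 and -0.32 in D4-act-7g, -0.02 and -0.48 on Dor-7g arrays, and 0.66 and 0.36 on DOX-7g arrays. Both DOX-7g arrays were above the other 4. The ratio was 1.11 higher in DOX-7g than in D4-act-7g and 0.76 higher than in Dor-7g, each with an exact two-sided permutation p of 0.333, the smallest that 2 arrays against 2 allow. In Dor-7g it overlapped with D4-act-7g, with a difference of 0.36 (exact permutation p = 0.667). The same was done for Cdk4 with Cdk6 and for Ccne1 with Cdk2, making 9 such tests, of which none could pass, before or after adjustment.

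Cdk4, one of both kinases that D-type cyclins activate, read 10.01 and 9.84 in D4-act-7g and 9.71 and 9.58 in DOX-7g, so that the DOX-7g arrays were slightly below. In Dor-7g it read 6.05 on replicate 1 and 9.99 on replicate 2. One Dor-7g array was thus near the D4-act-7g level and the other lower by a gap of 3.93 log2 units. Only 72 of 14020 genes had a gap that wide between both Dor-7g arrays (0.514%), and in 63 of the genes, Cdk4 included, replicate 1 was lower by at least as much. The mean of Dor-7g was 8.02 ± 2.78 (SD, n = 2 arrays), and the difference from D4-act-7g was -1.90 ± 1.17 (SE; limma, adjusted p = 0.515). It was 0.065 without Dor-7g replicate 1 (limma, adjusted p = 0.924) and -3.87 without replicate 2 (limma, adjusted p = 0.00228; 6.41% of all genes fell in that fit and 1.95% rose). The difference of DOX-7g from Dor-7g behaved alike, at 1.63 with all arrays, -0.34 without Dor-7g replicate 1 and 3.59 without replicate 2 (limma, adjusted p = 0.602, 0.523 and 0.00197; in the last fit 5.06% of all genes rose and 1.21% fell). Cdk4 in Dor-7g therefore has no settled level or direction in these data. In DOX-7g the difference from D4-act-7g was -0.28, with a 95% interval of -3.15 to 2.60 that the Dor-7g gap widens (limma, adjusted p = 0.983). With either Dor-7g array left out the same difference had an adjusted p = 0.439 (limma).

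The 250 bases before the Cdk4 start are shown because they hold 4 copies of the E-box CACGTG, the letters bound by Myc and related factors, together with 1 GC box (RefSeq, GRCm38.p6, chr10:127063285-127063534, plus strand). Capitals mark the E-boxes and the GC box, which was searched as GGGCGG on both strands.
Cdk4: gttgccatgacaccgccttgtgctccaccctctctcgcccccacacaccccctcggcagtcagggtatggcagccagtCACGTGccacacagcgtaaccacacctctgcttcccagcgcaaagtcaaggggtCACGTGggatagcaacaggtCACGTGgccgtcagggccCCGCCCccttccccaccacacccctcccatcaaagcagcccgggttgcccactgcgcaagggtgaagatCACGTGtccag
The E-boxes end 167, 113, 93 and 6 bases before the start. An E-box of these letters was found in 6.02% of 32851 promoters of that length, and 4 or more of them in 7 promoters (0.0213%). Among the 6 members with a promoter in the table, Cdk6 also held an E-box, and the other 4 held none. A match describes the letters only and says nothing of what bound there.

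Cdk6, the other partner of D-type cyclins and a reported let-7 target in human cells, read 7.29 and 6.89 in D4-act-7g, 6.11 and 6.37 on Dor-7g arrays, and 7.08 and 6.68 on DOX-7g arrays. The Dor-7g arrays were below the other 4, and the DOX-7g arrays overlapped with D4-act-7g. Group means were 7.09 ± 0.28, 6.24 ± 0.18 and 6.88 ± 0.28 in that order (SD, n = 2 arrays each). The difference of Dor-7g from D4-act-7g was -0.85 ± 0.24 (SE; limma, unadjusted p = 0.0136, adjusted p = 0.212), and -0.72 without Dor-7g replicate 1. For DOX-7g it was -0.21, with an interval of -0.81 to 0.39 (limma, adjusted p = 0.885). This interval holds 0 as well as a lowering by 0.81, so the group in which let-7 was induced shows neither a fall nor its absence. Between both dormant groups Cdk6 differed by 0.64 ± 0.24 (limma, unadjusted p = 0.0406, adjusted p = 0.414), which was 0.51 without Dor-7g replicate 1.

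Ccne1, the cyclin that activates Cdk2 at the start of S phase, had the smallest p among the members against D4-act-7g in both dormant groups. It read 6.73 and 6.92 in D4-act-7g, 6.01 and 5.92 on Dor-7g arrays, and 6.15 and 6.18 on DOX-7g arrays. The groups did not overlap, with D4-act-7g highest and Dor-7g lowest. The means were 6.83 ± 0.14, 5.97 ± 0.07 and 6.16 ± 0.02 (SD, n = 2 arrays each). Dor-7g stood -0.86 ± 0.17 from D4-act-7g, a 95% interval of -1.29 to -0.44 (limma, unadjusted p = 0.0027, adjusted p = 0.108), and -0.91 without Dor-7g replicate 1 (limma, adjusted p = 0.0985). DOX-7g stood -0.66 ± 0.17 from it, an interval of -1.09 to -0.24 (limma, unadjusted p = 0.00906, adjusted p = 0.216). Ranked by p, Ccne1 was number 350 of 14020 genes in the former comparison and number 587 in the latter. The step from Dor-7g to DOX-7g was 0.20, with an interval of -0.23 to 0.62 (limma, adjusted p = 0.654). It was 0.25 without Dor-7g replicate 1.

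**Figure D2:**
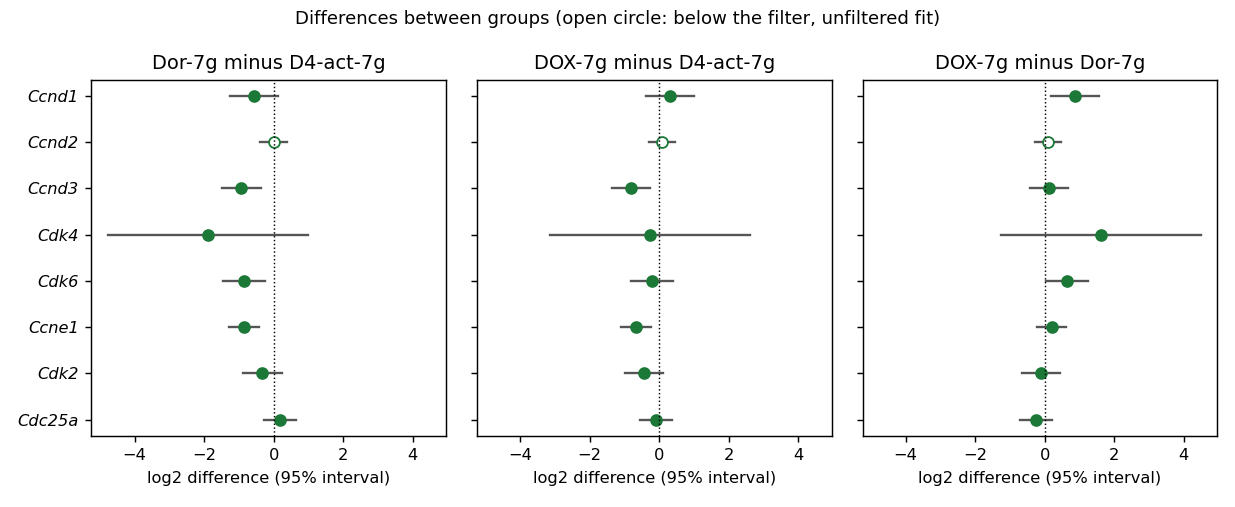
Differences of group means (horizontal axis, log2 units) for the 8 measured genes in each comparison; points are limma's estimates and lines their 95% intervals without adjustment over genes, and the open circle is Ccnd2, from the fit without the filter. The intervals of Ccnd3 and Ccne1 lie below 0 in both comparisons with D4-act-7g and that of Cdk6 in Dor-7g minus D4-act-7g alone, whereas that of Cdk4 runs from -4.78 to 0.98 in the first comparison.

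The region before Ccne1 is shown as that of the member with the smallest p (RefSeq, GRCm38.p6, chr7:38107491-38107740, minus strand), with GC boxes in capitals.
Ccne1: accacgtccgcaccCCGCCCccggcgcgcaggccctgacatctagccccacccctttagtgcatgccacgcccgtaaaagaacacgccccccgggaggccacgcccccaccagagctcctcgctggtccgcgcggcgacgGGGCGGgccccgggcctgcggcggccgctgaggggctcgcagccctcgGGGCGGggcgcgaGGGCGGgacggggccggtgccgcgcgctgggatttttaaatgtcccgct
It held 4 GC boxes and 76% G or C, against a median of 52.4% over all promoters of that length, and 32.7% of them held a GC box. No E2F motif in the letters TTTCGCGC or TTTGGCGC was found in this window on either strand.

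Cdk2, the kinase of E-type cyclins, read 5.68 and 5.52 in D4-act-7g, 5.09 and 5.45 on Dor-7g arrays, and 4.98 and 5.35 on DOX-7g arrays. All 4 dormant arrays were below both D4-act-7g arrays, Dor-7g replicate 2 only just, and the dormant groups overlapped. The difference from D4-act-7g was -0.33 ± 0.23 for Dor-7g and -0.43 ± 0.23 for DOX-7g (SE, n = 2 arrays each; limma, adjusted p = 0.558 and 0.594), and the former was -0.15 without Dor-7g replicate 1. DOX-7g stood -0.11 from Dor-7g, or -0.29 without Dor-7g replicate 1. The log2 ratio of Ccne1 to Cdk2 within an array was 0.53 lower in Dor-7g than in D4-act-7g without overlap (exact permutation p = 0.333) and overlapped in DOX-7g (a difference of -0.23; exact permutation p = 0.667).

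Cdc25a, whose product frees Cdk2 and other kinases from inhibitory phosphates, read 4.96 and 5.27 in D4-act-7g, 5.36 and 5.22 on Dor-7g arrays, and 5.02 and 5.03 on DOX-7g arrays. It spanned 0.40 log2 units, the narrowest range of the 7 tested members, at a level near the array median. Both dormant groups overlapped with D4-act-7g. The difference was 0.17 in Dor-7g (95% interval -0.29 to 0.64) and -0.09 in DOX-7g (-0.55 to 0.38; limma, adjusted p = 0.7 and 0.959). The DOX-7g arrays were both below the Dor-7g arrays, with a difference of -0.26 ± 0.19 (SE; limma, adjusted p = 0.602). Without Dor-7g replicate 1 the difference of Dor-7g from D4-act-7g was 0.10 and that of DOX-7g from Dor-7g -0.19. Its upstream region is shown because it held the E2F motif TTTGGCGC, the only match to TTTCGCGC or TTTGGCGC among the 7 windows of 6 members (RefSeq, GRCm38.p6, chr9:109875329-109875578, plus strand). Other forms of the E2F motif were not searched, so the other windows are not shown to lack one. Capitals also mark 2 CCAAT boxes (CCAAT on either strand) and 2 GC boxes that overlap by a base.
Cdc25a: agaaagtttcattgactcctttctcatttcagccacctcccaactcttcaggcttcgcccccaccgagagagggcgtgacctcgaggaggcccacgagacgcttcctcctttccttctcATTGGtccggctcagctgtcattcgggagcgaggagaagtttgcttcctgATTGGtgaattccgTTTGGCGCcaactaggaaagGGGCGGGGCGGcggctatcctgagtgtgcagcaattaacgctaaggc
The E2F motif ended 60 bases before the start. Either form of it was found in 215 of 32851 promoters (0.654%), and CCAAT in 33.8%.

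Downstream of these kinases lie the E2F targets, a list of 20 genes of S phase entry of which 17 were tested. Rrm2, a subunit of the enzyme that makes deoxyribonucleotides, and Tk1, thymidine kinase, fell in Dor-7g. Those were the only 2 of 17 genes past the threshold (limma; 0.742% of all genes fell), and 8 of 17 were lower at an unadjusted p of 0.05 (8.81% of all genes). Rrm2 read 8.10 and 8.04 in D4-act-7g, 6.17 and 5.87 on Dor-7g arrays, and 6.39 and 6.82 on DOX-7g arrays. It fell by 2.05 ± 0.22 in Dor-7g (SE; limma, adjusted p = 0.0223), and in DOX-7g its difference was -1.47 ± 0.22 (limma, adjusted p = 0.0598). Tk1 read 9.44 and 9.70 in D4-act-7g, 7.38 and 7.90 on Dor-7g arrays, and 8.88 and 9.02 on DOX-7g arrays. It fell by 1.93 ± 0.24 in Dor-7g (limma, adjusted p = 0.0302), with a difference of -0.62 ± 0.24 in DOX-7g (limma, adjusted p = 0.426).

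Without Dor-7g replicate 1 the differences were -2.20 for Rrm2 and -1.67 for Tk1 (limma, adjusted p = 0.0301 and 0.0383), with the spread taken from the other 2 groups. Leaving out either D4-act-7g array ended both (0.175 and 0.188 for Rrm2, 0.188 and 0.227 for Tk1), and leaving out either DOX-7g array ended that of Tk1 (0.0915). The median of the list was -0.64 in Dor-7g, or -0.39 without Dor-7g replicate 1, and -0.49 in DOX-7g. Both Dor-7g arrays were below both D4-act-7g arrays for 13 of 17 genes (21.5% of all genes) and both DOX-7g arrays for 16 of 17 (30.5%). In DOX-7g none of 17 passed, and 6 were lower at an unadjusted p of 0.05 (limma; 6.40% of all genes). DOX-7g against Dor-7g had a median of 0.18, no gene past the limma threshold and 3 genes higher at an unadjusted p of 0.05 (6.06% of all genes), and without Dor-7g replicate 1 the median was -0.053. In that comparison Ccna2, the S phase cyclin that also binds Cdk2, stood 1.34 ± 0.32 higher in DOX-7g (SE; limma, adjusted p = 0.2), or 0.93 without Dor-7g replicate 1. Cdt1, which licenses replication origins, stood -0.60 ± 0.17 from D4-act-7g in DOX-7g (limma, adjusted p = 0.257).

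**Figure D3:**
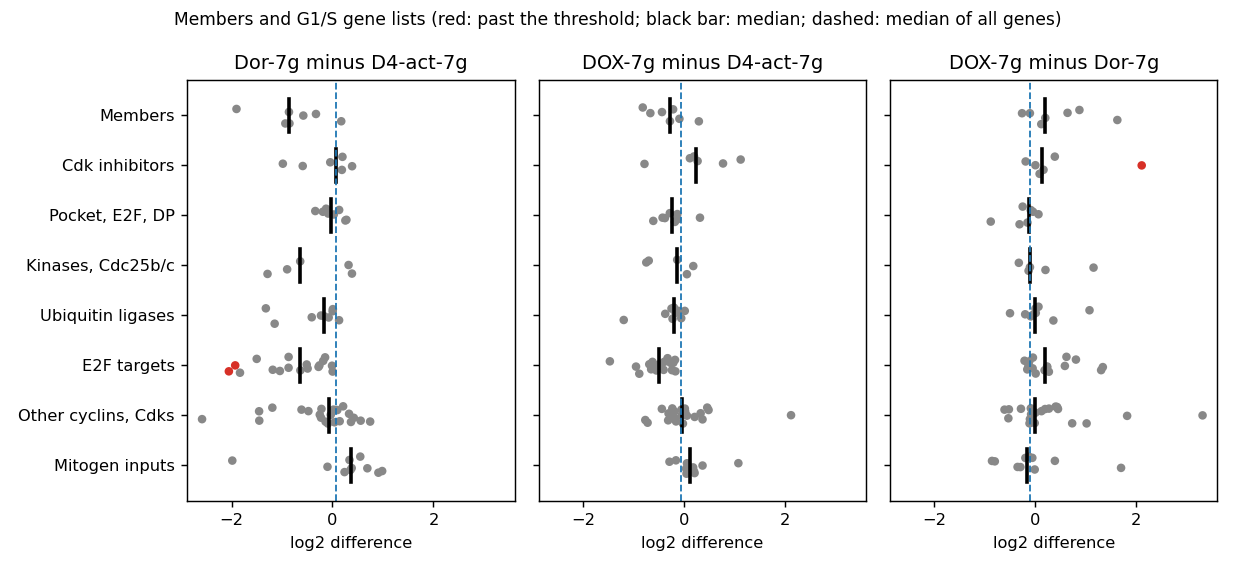
Log2 differences (horizontal axis) of the 7 tested members and of 7 lists of G1 and S phase genes in each comparison; each point is a gene, red points passed the threshold, black bars are medians and the dashed line is the median of all 14020 genes. In Dor-7g the median of the members is -0.85, and those of the E2F targets and of the list with kinases, Cdc25b and Cdc25c are both -0.64. Rrm2 and Tk1 are in red there, and Cdkn1a is the red point in the comparison of DOX-7g with Dor-7g.

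The tested inhibitors of these kinases were mixed, and Cdkn1b of their list was not tested. Of 6 tested genes of the Cip/Kip and INK4 families, Cdkn1a, which encodes p21, read 8.77 and 8.62 in D4-act-7g, 7.43 and 7.99 on Dor-7g arrays, and 9.86 and 9.78 on DOX-7g arrays. The 3 groups did not overlap, with Dor-7g lowest and DOX-7g highest. Cdkn1a was higher in DOX-7g than in Dor-7g by 2.11 ± 0.24 (SE; limma, adjusted p = 0.0177), the only gene of these 6 to pass in any comparison, where 1.04% of all genes rose. Without Dor-7g replicate 1 the difference was 1.83 (limma, adjusted p = 0.0216, with the spread taken from the other 2 groups). The call was lost when either D4-act-7g array was left out (0.071) or either DOX-7g array (0.133 and 0.122). Against D4-act-7g the differences of Cdkn1a were -0.98 ± 0.24 for Dor-7g and 1.12 ± 0.24 for DOX-7g (limma, adjusted p = 0.154 and 0.141). Cdkn1c, which encodes p57, stood 0.78 ± 0.19 from D4-act-7g in DOX-7g, and Cdkn2c, which encodes p18, -0.59 ± 0.20 in Dor-7g (limma, adjusted p = 0.2 and 0.279). At an unadjusted p of 0.05, 2 of 6 were lower in Dor-7g, against 8.81% of all genes, while in DOX-7g 2 were higher and 1 lower, against 4.61% and 6.40%. The list's median was 0.071 in Dor-7g, or 0.012 without replicate 1, and 0.24 in DOX-7g. Without that array Cdkn1a stood -0.70 and Cdkn2c -0.64 from D4-act-7g.

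Of the listed pocket proteins and E2F and DP factors, Rb1, Rbl2, E2f3, E2f5 and E2f6 were not tested, which left Rbl1 as the only pocket protein. None of the 8 tested pocket proteins and E2F and DP factors passed in limma's test in any comparison (0.984%, 0.956% and 1.16% of all genes did). At an unadjusted p of 0.05 none differed from D4-act-7g in Dor-7g or DOX-7g, against 14.3% and 11.0% of all genes. In DOX-7g against Dor-7g only Tfdp2 differed and was lower (5.53% of all genes were lower and 6.06% higher). That difference was -0.88 ± 0.29 (SE; limma, adjusted p = 0.348). It was -1.11 without Dor-7g replicate 1. The medians of the list were -0.030 in Dor-7g, which turned to 0.040 without replicate 1, and -0.23 in DOX-7g. Tfdp1, a DP partner of E2F, stood -0.34 ± 0.20 from the D4-act-7g mean in Dor-7g and -0.42 ± 0.20 in DOX-7g (SE; limma, adjusted p = 0.486 and 0.53). E2f1 stood -0.19 ± 0.18 from it in Dor-7g (limma, adjusted p = 0.651). These Dor-7g differences were -0.51 for Tfdp1 and -0.25 for E2f1 without replicate 1.

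The list of kinases that activate or inhibit Cdks and of the other Cdc25 phosphatases also holds Wee1, Pkmyt1, Chek1 and Chek2. These were not tested, so nothing is shown of kinases that inhibit Cdks. Of its 5 tested genes, Cdk7, Ccnh, Mnat1, Cdc25b and Cdc25c, none passed either (limma). At an unadjusted p of 0.05, 2 were lower in Dor-7g and 1 in DOX-7g, against 8.81% and 6.40% of all genes, and 1 was higher in DOX-7g than in Dor-7g, against 6.06%. Cdc25c, a phosphatase of mitotic entry, read 5.34 and 5.37 in D4-act-7g, 4.36 and 4.55 on Dor-7g arrays, and 4.73 and 4.59 on DOX-7g arrays. Its dormant arrays were all lower, by -0.90 ± 0.18 and -0.70 ± 0.18 (SE; limma, adjusted p = 0.102 and 0.204), while its relative Cdc25a overlapped. Cdc25c reached the array median only in D4-act-7g and on DOX-7g replicate 1, and below it the array may not follow changes of the transcript. Mnat1, a part of the Cdk-activating kinase, stood -1.29 ± 0.34 from D4-act-7g in Dor-7g (limma, adjusted p = 0.191), at 5.28 and 6.29 against 7.11 and 7.03. Both were nearer to 0 without Dor-7g replicate 1, at -0.80 for Cdc25c and -0.78 for Mnat1. The list's median was -0.64 in Dor-7g, or -0.23 without replicate 1, and -0.13 in DOX-7g.

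Among parts of ubiquitin ligases that turn over G1 cyclins and Cdc25a, the listed Skp2, Fbxo4 and Fbxw11 were not tested. Of 9 tested parts of such ligases, none passed (limma). At an unadjusted p of 0.05, 2 were lower in Dor-7g and 1 in DOX-7g, against 8.81% and 6.40% of all genes. In DOX-7g against Dor-7g 1 was higher and 1 lower, against 6.06% and 5.53%. Skp1, the adaptor of such ligases, read 10.77 and 10.90 in D4-act-7g, 9.33 and 9.71 on Dor-7g arrays, and 10.48 and 10.71 on DOX-7g arrays, a difference of -1.32 ± 0.21 in Dor-7g (SE; limma, adjusted p = 0.0636). Btrc, an F-box protein that marks Cdc25a for breakdown, stood -1.15 ± 0.27 from the D4-act-7g mean in Dor-7g and -1.19 ± 0.27 in DOX-7g (limma, adjusted p = 0.151 and 0.167). Ambra1, which targets D-type cyclins for breakdown, stood -0.50 ± 0.20 from Dor-7g in DOX-7g (limma, adjusted p = 0.421). Without Dor-7g replicate 1 the Dor-7g differences from D4-act-7g were -1.13 for Skp1 and -0.86 for Btrc, and that of Ambra1 between both dormant groups was -0.43. The list's median was -0.17 in Dor-7g, or -0.25 without replicate 1, and -0.20 in DOX-7g.

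Among 22 other cyclins and kinases none passed (limma), with medians of -0.063 in Dor-7g, or -0.041 without replicate 1, and -0.045 in DOX-7g. Before adjustment, at p of 0.05, 3 were lower in Dor-7g and 1 in DOX-7g, against 8.81% and 6.40% of all genes, and 3 were higher and 1 lower in DOX-7g against Dor-7g, against 6.06% and 5.53%. Ccnb2, a mitotic cyclin, stood -1.45 ± 0.22 from the D4-act-7g mean in Dor-7g and -0.72 ± 0.22 in DOX-7g (SE; limma, adjusted p = 0.0585 and 0.308). Cdk1, the mitotic kinase, read 8.49 and 7.99 in D4-act-7g, 4.59 and 6.72 on Dor-7g arrays, and 7.42 and 7.53 on DOX-7g arrays, with a difference of -2.58 ± 0.66 in Dor-7g (limma, adjusted p = 0.175). All dormant arrays of Cdk1 were below both D4-act-7g arrays, and its Dor-7g arrays were far apart. On Dor-7g replicate 1 Cdk1 lay below the array median of 4.87. Outside the rule for named genes, and picked after their values were seen, Cdk5 stood -1.45 ± 0.44 from D4-act-7g in Dor-7g, and Ccng1, which p53 induces, stood 3.31 ± 1.18 from Dor-7g in DOX-7g (limma, adjusted p = 0.227 and 0.388). Ccng1 read 6.46 on Dor-7g replicate 1 and 10.41 on replicate 2, a split like that of Cdk4. Leaving out Dor-7g replicate 1 gave Dor-7g differences of -1.22 for Ccnb2, -1.52 for Cdk1 and -0.81 for Cdk5, and one of 1.34 for Ccng1 between both dormant groups.

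Genes that carry growth signals to D-type cyclins showed no gene past the threshold among 10 tested (limma). Unadjusted at 0.05, 2 were higher and 1 lower in Dor-7g, against 5.44% and 8.81% of all genes, and none differed in DOX-7g, against 11.0%. In DOX-7g against Dor-7g 1 was higher and 2 lower, against 6.06% and 5.53%. Their median was 0.37 in Dor-7g, or 0.38 without replicate 1, and 0.12 in DOX-7g. Fos and Egr1, immediate-early genes, stood 0.91 ± 0.19 and 0.98 ± 0.27 from D4-act-7g in Dor-7g (SE; limma, adjusted p = 0.124 and 0.201). Gsk3b, a kinase that marks cyclin D1 for export and breakdown and is named here after its values were seen, read 3.83 on Dor-7g replicate 1, 5.99 on replicate 2 and more on each of the other 4 arrays (a difference of -1.98 ± 0.66 from D4-act-7g; limma, adjusted p = 0.262). On Dor-7g replicate 1 Gsk3b lay below the array median of 4.87. The differences without Dor-7g replicate 1 were 0.87 for Fos, 1.09 for Egr1 and -0.90 for Gsk3b.

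The members' patterns over the 6 arrays were set against those of all tested genes, after centring each gene on its own mean, for the 3 members with the widest range. The closest to Cdk4 was Tm2d1, with a root-mean-square difference of 0.12 log2 units, against a median of 1.48 over all genes, followed by Pbdc1 (0.17) and Commd4 (0.18). Like Cdk4, these read low on Dor-7g replicate 1 alone, Tm2d1 at 7.15 there and at 10.60 or more on the other 5 arrays. Nearest to Ccnd1 were Spr (0.12), Stard10 (0.13) and H2-Oa (0.16), against a median of 0.52. Nearest to Cdk6 were Mettl9 (0.053), Eif1ax (0.086) and Cdc37 (0.10), against a median of 0.51. These names describe a likeness of pattern over 6 arrays only.

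**Figure D4:**
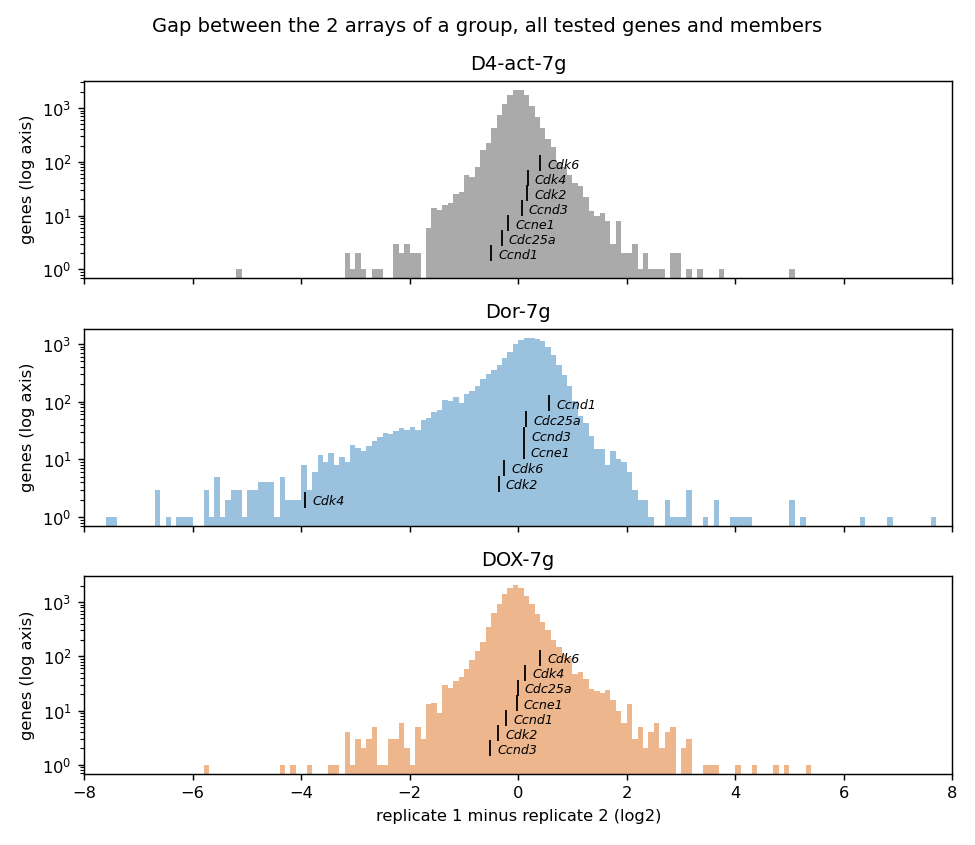
Histograms of the log2 gap between replicate 1 and replicate 2 of each group (horizontal axis) over 14020 genes (vertical axis, log scale), with black ticks at the 7 tested members, whose heights only separate their names. Cdk4 lies at -3.93 in Dor-7g, in the long left tail of that group, and the other 6 members lie between -0.36 and 0.56 there.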

How the data were processed

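The values deposited by the authors are log2 signals of 41345 probesets on 6 arrays, and the submitters' processing notes name Partek 6.6 and RMA without settings. Sample titles gave groups and replicate numbers. Names came from GEO's annotation of the array, and symbols were updated by Entrez identifier in RefSeq (GRCm38.p6, names and sequences only); 23521 probesets had 1 symbol, 1814 several and 16010 are not named here. Genes with at least 2 of 6 arrays at or above the array's median over all probesets were kept, by their brightest probeset, leaving 14020. All 6 arrays were fitted in limma 3.58.1 (R 4.3.3) with group means, no block and plain eBayes (3 residual and 2.81 prior degrees of freedom). p-values were adjusted by Benjamini-Hochberg over all genes within each comparison, with a threshold of 0.05. The procedure was tested on simulated data in which a gene had the same spread on all 6 arrays. That test does not cover a group whose arrays lie further apart, such as Dor-7g. Of the 7 lists, the genes named are those past the threshold or among the 2 smallest p-values of a comparison; all members are named. Cdkn2c and E2f1 fall under this rule. Marker genes were named after their values were seen. Members and lists were chosen with earlier results of these data known, and no call over them is independent support. Alternatives covered normalization, filters, probesets, variance model, array weights, a replicate block, the arrays fitted and leaving out each array. Same-numbered arrays did not deviate together over all genes (correlations of replicate gaps of -0.02, -0.01 and -0.14). The titles do not tell whether the numbers pair arrays, and these correlations cannot exclude a shared batch that touches few genes.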

Additional observations from a re-analysis of the deposited data

How the results depend on the processing

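Over 15 alternatives in each of 3 comparisons, 189 of 315 member differences could not move, since the setting changes only the spread, the genes tested, the probesets averaged or arrays outside the comparison. Leaving out an array of the third group also repeats the fit of only the 4 arrays compared. Of the 126 that moved, 8 turned direction and 2 newly passed. These 10 were 4 of Cdk4, 4 of Cdk2, 1 of Ccnd3 and 1 of Cdc25a. Cdk4 turned to 0.065 (Dor-7g minus D4-act-7g) and -0.34 (DOX-7g minus Dor-7g) without Dor-7g replicate 1, and passed at -3.87 and 3.59 without replicate 2, with 1 Dor-7g array left and the spread taken from the other groups alone, where members past the threshold went from 0 to 1. Cdk2, at -0.11 in DOX-7g minus Dor-7g, turned to 0.017 after a second quantile normalization, 0.025 with arrays centred on their medians, 0.075 without Dor-7g replicate 2 and 0.076 without DOX-7g replicate 1, and ran from -0.29 to 0.076 with each array left out in turn. Ccnd3 ran from -0.14 (without DOX-7g replicate 2) to 0.38 in that comparison, and Cdc25a from -0.24 to 0.065 (without D4-act-7g replicate 2) in DOX-7g minus D4-act-7g. In every other alternative run, 0 members passed. The cause of these turns was not tested beyond the array left out.

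Genes past the threshold were 138, 134 and 163 in the comparisons Dor-7g minus D4-act-7g, DOX-7g minus D4-act-7g and DOX-7g minus Dor-7g. With array weights they were 79, 461 and 104, and with only the 4 arrays compared 86, 296 and 86. With each array left out in turn they ran from 11 to 1172, from 43 to 296 and from 67 to 880, and members past the threshold from 0 to 1, 0 to 0 and 0 to 1. The replicate block gave 82, 90 and 116 genes and 0 members, with adjusted p = 0.052 for Cdkn1a, 0.059 for Rrm2 and 0.0462 for Tk1 (limma). Whether arrays of the same number share more than that number is not known. Array weights gave 0.0511 for Tk1, and only the 4 arrays compared gave 0.071 for Cdkn1a and 0.0915 for Tk1 (limma); these were chosen after seeing the data. The array weights were equal within a group, at 0.422 for both Dor-7g arrays, so they did not single out Dor-7g replicate 1. Without the filter the counts were 137, 134 and 155. Changes under about 1.2 log2 units could not pass for any member in the comparisons with D4-act-7g, and a difference below that is not shown to be absent.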
